A study of Mus musculus with 4 samples.

Results

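The mitochondrial ribosomal protein genes were taken as the genes whose symbol starts with Mrpl or Mrps in the annotation of the array, each read from its brightest probe set that carries a single symbol. The rule found 74 of 12393 named genes, 47 Mrpl genes named for the large subunit and 27 Mrps genes named for the small subunit. No measured difference entered the rule. The data are signal intensities of gastrocnemius muscle, a calf muscle, of mice aged 6 weeks, measured on 4 expression arrays with 1 total RNA sample each. The labels place 2 arrays with wild-type, non-transgenic littermates and 2 with MCK-PPARb mice, in which muscle makes an excess of PPARbeta, a nuclear receptor encoded by Ppard. MCK is the usual abbreviation of muscle creatine kinase, whose promoter drives transgenes in striated muscle fibres and not in the other cells of the tissue. The labels name the arrays of a group biological replicates, while the design text can also be read as repeated measurements, in which case p-values would measure technical spread alone.

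Mitochondria carry their own ribosome, built from RNAs encoded in mitochondrial DNA and from proteins encoded in the nucleus, made in the cytosol and imported. It translates the few mitochondrially encoded messages, all of them for subunits of the respiratory chain and ATP synthase. The small subunit holds the mRNA and reads codons, and the large subunit joins amino acids and feeds the growing chain to the inner membrane. When muscle builds more mitochondria, as in endurance training, nuclear genes of this ribosome are generally made in concert with those of the respiratory chain, under coactivators of the PGC-1 family and the factors NRF-1 and GABP. The comparison of MCK-PPARb with non-transgenic muscle asks whether these genes shift with more PPARbeta, and whether both subunits do so alike.

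Ppard, the gene overexpressed by design, read 2169 and 2825 signal units in the littermates and 126049 and 98797 in transgenic muscle (log2 difference 5.49 ± 0.22, SE, with 2 arrays a group and a limma adjusted p of 1.874e-04), which matches the labels. All 11 listed genes typical of skeletal muscle lay above 444 units, the level below which a probe set was left out of the tests. Their signals summed to 2175390 and 1272120 units in non-transgenic and 1470510 and 1293410 units in MCK-PPARb mice, highest on non-transgenic replicate 1, with a median log2 difference of -0.26. Adipocyte markers summed to 9159 and 9063 units in the littermates and 12901 and 15326 units in transgenic muscle over 6 of 8 listed genes, with Cidec, Lep and Cidea below the filter. Schwann cell markers summed to 18251 and 20115 against 30447 and 34168 units over 5 of 8 genes, with Mag and S100b below it. No marker of any list passed at a limma adjusted p under 0.05, against 0.731% of all genes tested. Median log2 differences were 0.73 for the adipocyte and 0.29 for the Schwann cell markers measured. They were 0.054 for endothelium, -0.13 for fibroblasts, -0.22 for leukocytes and 0.17 for red cells. Ptprc, Cd3e and Cd79a of the leukocyte list and Hba-a1 of the red cell list lay below the filter. Over the markers above it alone, the medians were 1.02 for adipocytes, 0.67 for Schwann cells, 0.12 for leukocytes and 0.079 for red cells. The sign for leukocytes thus depends on the dim markers. Cardiac muscle markers, all below the filter, had a median of 0.52. No marker was listed at 0, and the part of any of these cell types in the results below was not tested. Signals come from whole muscle, so fewer cells of a type and less RNA per cell cannot be told apart.

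None of the 74 genes passed the test across all probe sets. With limma, 0 rose and 0 fell at an adjusted p under 0.05, while 0.731% of the 6841 genes tested passed, 0.409% upward and 0.322% downward. At an unadjusted p under 0.05 there were 3 members, Mrpl48 and Mrpl14 higher and Mrpl16 lower, against 5.31% of all genes tested higher and 5.57% lower. That count was 6 without non-transgenic replicate 1 and 1 without MCK-PPARb replicate 2. All 74 genes lay above the filter on dim probe sets, with mean signals of 876 to 23729 units, so none was left out for want of signal. The median of the differences, MCK-PPARb minus non-transgenic, was 0.046 on the log2 scale, against 0.011 for all genes tested. The differences ran from -0.60 to 0.53, and 41 were above 0 and 33 below, while 51.2% of all genes tested were above 0. The MCK-PPARb signals were both above the others for 14 members and both below for 9, against 22.2% and 20.8% of all genes tested. The SD of the members' differences was 0.25, against 0.47 over all genes tested. The members were brighter, with a median signal of 3472 against 1608 units, and the part of brightness in their spread was not tested.

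The absence of calls says little by itself with 2 arrays a group, so the 95% intervals of the differences were read as well. For 64 of the 74 genes the interval lay within a 2-fold change in either direction, compared with 61.7% of all genes tested. For 10 genes, 13.5% of the members, it lay within a 1.5-fold change, compared with 9.02% of all genes tested. A 2-fold change either way thus lay outside the interval for most members, while a 1.5-fold change in at least 1 direction lay inside it for most. The median SE was 0.23 for the members and 0.27 for all genes tested. Since the members were also brighter, these shares compare genes of unlike signal, and the part of brightness was not tested.

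**Figure D1:**
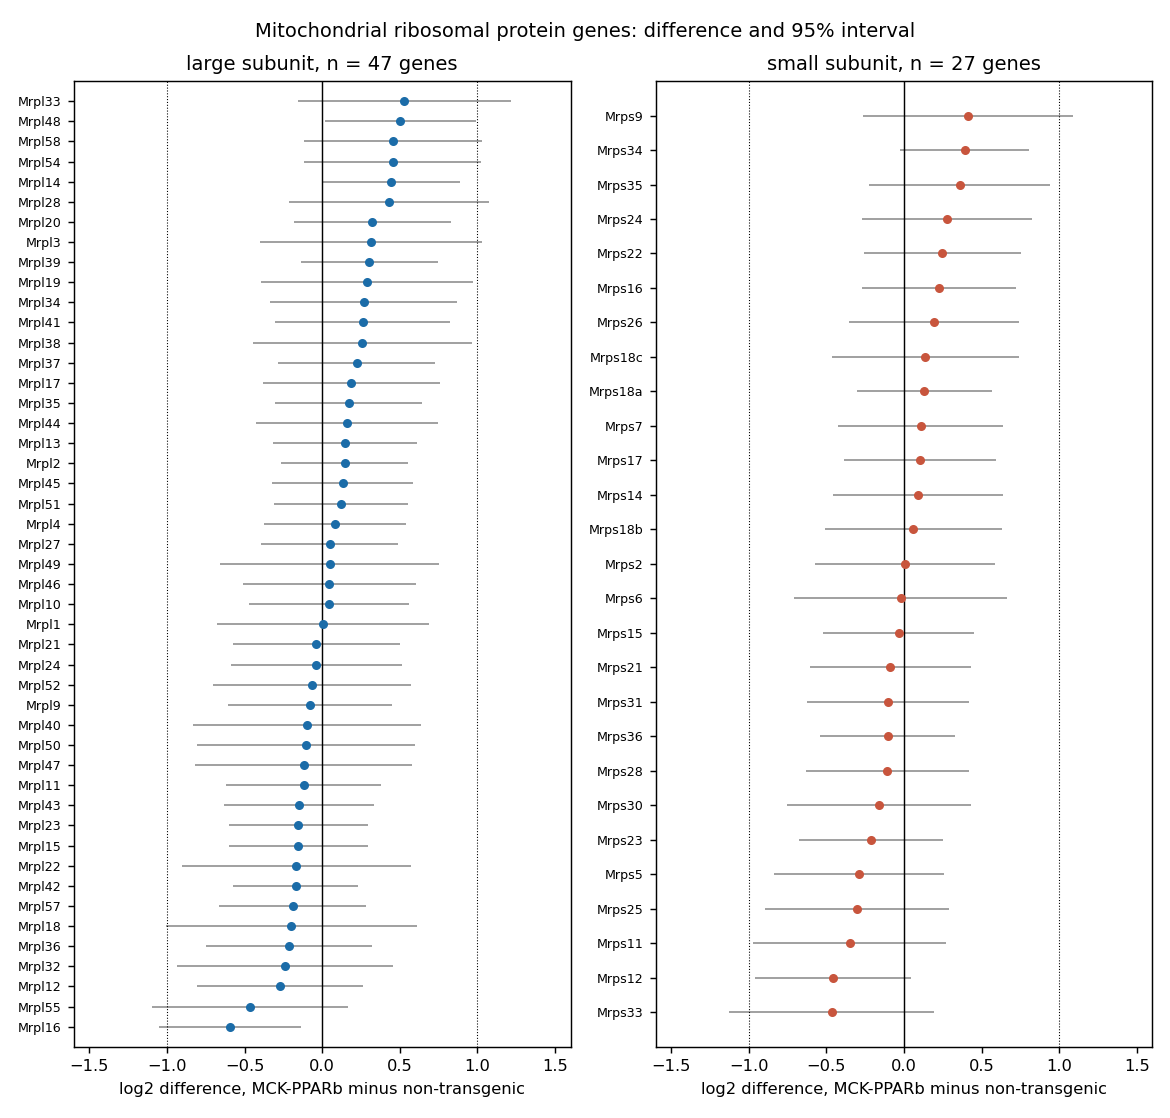
Log2 difference (MCK-PPARb minus non-transgenic, x axis) of each of the 47 Mrpl genes (left) and 27 Mrps genes (right), sorted by size; points are fitted differences, bars their 95% intervals with n = 2 arrays per group, and dotted lines mark 2-fold changes. The points run from -0.60 for Mrpl16 to 0.53 for Mrpl33, and 64 of 74 intervals lie between the dotted lines.

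Genes of the large subunit had a mean log2 difference of 0.058 and a median of 0.048. Of the 47, 27 had a difference above 0 and 20 below, while 51.2% of all genes tested were above 0. With median centring of the arrays 21 of the 47 were above 0. Centring lowers every difference by the same amount. The mean of these genes less the median of all tested probe sets was 0.042 both with and without it. The mean log2 signal of the 47 genes was 11.73 and 11.86 in the littermates and 11.75 and 11.96 in MCK-PPARb muscle. The groups overlapped, and the difference of their means was smaller than the SD of 0.13 between arrays of a group. Both signals of MCK-PPARb muscle exceeded those of the littermates for 9 genes and lay below them for 3, which is 25.5% of the 47, while 42.9% of all genes tested did not overlap.

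Mrpl16, a counterpart of a bacterial large-subunit protein, had the largest difference of any member and the smallest p. Its signal was 5846 and 6487 units in the littermates and 3761 and 4411 units in transgenic muscle. Both MCK-PPARb signals were lower, and the log2 difference was -0.60 ± 0.20 (SE, n = 2 per group), with an interval of -1.05 to -0.14 that leaves out 0. Adjusted over all probe sets, the limma p was 0.324, above the threshold. Mrpl48, a protein that mitochondrial ribosomes have and bacterial ones lack, read 4759 and 5734 against 6667 and 8229 units (0.50 ± 0.21, adjusted p = 0.452). Its groups did not overlap, and its other tested probe set read 1637 and 1778 against 2486 and 3029 units, a difference of 0.69 with an adjusted p of 0.325. Both probe sets measure RNA of the same mice, so the second is no further replicate. Mrpl14, which lies at the face of the large subunit that meets the small one, read 4703 and 4901 against 6073 and 7027 units (0.44 ± 0.19, adjusted p = 0.470).

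The next genes by p had intervals that included 0. Mrpl58 encodes a peptidyl-tRNA hydrolase built into the large subunit that frees stalled chains, and it read 3533 and 3755 against 4050 and 6156 units (0.46 ± 0.24). Mrpl54, another protein particular to mitochondria, read 2607 and 3597 against 3704 and 4750 units (0.45 ± 0.24). For both genes the lowest MCK-PPARb signal lay only slightly above the highest non-transgenic one. Mrpl33, a counterpart of a bacterial protein and the dimmest of the 74, read 681 and 782 against 1192 and 930 units (0.53 ± 0.29, adjusted p = 0.587). Its difference was the largest of those above 0, with an interval of -0.16 to 1.22, so its size is poorly known.

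The promoters of the genes at the ends of the range, Mrpl33 and Mrpl16, are shown because NRF-1 and GABP are the factors named above, with that of Mrpl32, which held the most matches. Each stretch runs 5′ to 3′ on the strand of the gene, from 120 bases before to 6 bases after its start in the RefSeq promoter table of build GRCm38.p6, and capitals mark matches to GCATGCGC (NRF-1) or CCGGAAGT (the ETS site read by GABP) on either strand. Mrpl33 lies on the plus strand at chr5:31613831-31613956, Mrpl16 on the plus strand at chr19:11770295-11770420 and Mrpl32 on the minus strand at chr13:14613032-14613157.
Mrpl33: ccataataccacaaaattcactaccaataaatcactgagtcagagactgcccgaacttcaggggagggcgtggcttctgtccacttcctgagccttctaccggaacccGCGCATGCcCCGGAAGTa
Mrpl16: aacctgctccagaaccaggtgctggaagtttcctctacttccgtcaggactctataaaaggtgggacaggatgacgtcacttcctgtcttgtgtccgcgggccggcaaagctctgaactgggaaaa
Mrpl32: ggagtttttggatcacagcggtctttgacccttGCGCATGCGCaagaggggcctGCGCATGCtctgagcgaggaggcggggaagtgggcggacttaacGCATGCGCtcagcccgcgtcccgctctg
Mrpl33 held 1 match to each motif, side by side at the start. Mrpl32 held 4 matches to the NRF-1 letters, of which 2 overlap on opposite strands. Mrpl32 read 4752 and 6369 units in the littermates and 6143 and 3524 units in transgenic muscle (-0.24 ± 0.30, adjusted p = 0.836), and its groups overlapped. Mrpl16 held no match in this stretch.

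Promoters of 300 bases, 250 before and 50 after the start, were found for 65 of the 74 genes, 71 promoters in all. The NRF-1 letters were in 8 of these (11.3%), against 2.71% of all 32851 promoters of the table. The ETS letters were in 11 (15.5%), against 3.89% of all, and the direct repeat of the half-site AGGTCA with 1 base between, which PPAR binds with its partner RXR, was in 0, against 13 of all promoters. Over the 8 genes with the NRF-1 letters the median log2 difference was 0.053, and over the other genes with a promoter 0.0032. With the ETS letters the median was 0.14 over 11 genes, 8 of them above 0, and -0.028 over the rest. These medians are a description, and a match is no sign that a factor binds there.

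The brightest large-subunit genes were measured with small errors. Mrpl42, a protein particular to mitochondria, read 24507 and 25860 units in the littermates and 21899 and 22843 in transgenic muscle, a difference of -0.17 ± 0.17 (interval -0.57 to 0.23). Both MCK-PPARb signals were lower, by an amount that did not pass. Mrpl51, also particular to mitochondria, read 15587 and 18113 against 17250 and 19410 units (0.12 ± 0.18), with groups that overlapped. The genes nearest to no difference were Mrpl1, at 1143 and 835 against 927 and 1033 units (0.0032 ± 0.29), and Mrpl21, at 2299 and 2911 against 2319 and 2736 units (-0.038 ± 0.23). For these 2 genes the arrays of a group differed more from each other than the groups did.

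Genes of the small subunit had a mean log2 difference of 0.0016 and a median of 0.0072. Of the 27, 14 had a difference above 0 and 13 below, while 51.2% of all genes tested were above 0. With median centring, which lowers every difference alike, 10 of the 27 were above 0. Their mean less the median of all tested probe sets was -0.015 both with and without it. The mean log2 signal of the 27 genes was 11.51 and 11.65 in the littermates and 11.48 and 11.68 in MCK-PPARb muscle, so the MCK-PPARb arrays lay at both ends of the range. None of the 27 was called, none had an unadjusted limma p under 0.05, and the smallest adjusted p was 0.505. Of all genes tested, 0.731% were called, and 5.31% higher and 5.57% lower had an unadjusted p under 0.05. The groups did not overlap for 11 genes, 5 higher and 6 lower, or 40.7% against 42.9% of all genes tested.

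Mrps34, a protein particular to the mitochondrial small subunit, had the smallest p among them, at 5978 and 6319 units in the littermates and 8310 and 7810 units in transgenic muscle. Both MCK-PPARb signals were higher, with a log2 difference of 0.39 ± 0.18 and an interval of -0.028 to 0.81. Mrps12, a protein of the decoding centre, read 2827 and 3409 against 2358 and 2172 units, a difference of -0.46 ± 0.22 (adjusted p = 0.517 with limma). Mrps33, particular to mitochondria like Mrps34, had the lowest difference, at 2102 and 3466 against 1877 and 2034 units (-0.47 ± 0.28), and the gap between its non-transgenic arrays was wider than the difference between groups. Mrps35, another such protein, read 1613 and 2097 against 2102 and 2643 units (0.36 ± 0.25). Mrps9, a counterpart of a bacterial protein, read 806 and 1017 against 1056 and 1378 units (0.41 ± 0.29). Mrps11, a counterpart of a bacterial protein near the path of the mRNA, read 1511 and 1571 against 1420 and 1030 units (-0.35 ± 0.27). These 6 genes were picked as those of smallest p whose groups do not overlap. Of them 3 were higher and 3 lower in MCK-PPARb muscle, and none passed.

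At the other end, Mrps2 read 1989 and 1895 against 1657 and 2298 units (0.0072 ± 0.25), and Mrps6 read 974 and 1008 against 821 and 1162 units (-0.021 ± 0.29). Both are counterparts of bacterial proteins, and in both the MCK-PPARb signals lay on either side of the non-transgenic ones. Mrps21, the brightest Mrps gene, read 7318 and 9914 against 7220 and 8885 units (-0.089 ± 0.22).

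A few Mrps genes do not belong to the small subunit despite their name. The proteins of Mrps18a and Mrps30 sit in the large subunit of the mammalian ribosome, and that of Mrps36 is now known as a subunit of the 2-oxoglutarate dehydrogenase complex of the citric acid cycle. Mrps18a read 5335 and 5666 units in the littermates and 5706 and 6359 in transgenic muscle (0.13 ± 0.19), with groups that barely separated. Its relatives Mrps18b and Mrps18c, which like it resemble a bacterial small-subunit protein, had differences of 0.061 ± 0.24 and 0.14 ± 0.26 with groups that overlapped. Mrps30 read 3722 and 2863 against 2459 and 3455 units (-0.16 ± 0.25), and Mrps36 8013 and 8386 against 7014 and 8281 units (-0.11 ± 0.19). With these genes assigned by structure, 49 to the large and 24 to the small subunit, the mean differences were 0.055 and 0.0075.

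Large and small subunits were then set against each other on each array, where a scaling factor of the array cancels. The mean log2 signal of the 47 Mrpl genes minus that of the 27 Mrps genes was 0.22 and 0.21 in the littermates and 0.26 and 0.28 in MCK-PPARb muscle. Both MCK-PPARb values were higher, by a mean of 0.057, and the SD between arrays of a group was 0.011. That SD rests on 2 arrays in each group and is itself poorly known. Over genes, the differences had an SD of 0.26 among the Mrpl and 0.25 among the Mrps genes. The offset itself compares different probe sets and says nothing of amounts of protein or RNA. With the assignment by structure the values were 0.35 and 0.30 against 0.35 and 0.39, which barely separated, with a difference of 0.048 and an SD of 0.030. The difference was 0.15 when the probe sets of each gene were averaged. A value averaged over chosen genes was given no p.

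The genes were also divided by origin, following the nomenclature of ribosomal proteins, with classes written after the values had been seen. The 29 Mrpl genes with a bacterial counterpart had differences with a median of 0.0032, and the 18 particular to mitochondria one of 0.13, with 12 above 0 and 6 below. Among Mrps genes the medians were 0.0072 for 15 with a counterpart and -0.020 for the other 12, which by that nomenclature include Mrps18a, Mrps18b and Mrps36. With Mrps18a and Mrps18b counted as counterparts and Mrps36 left out, the medians were 0.061 for 17 genes and -0.10 for 9. The 18 Mrpl genes had a mean log2 signal of 11.77 and 11.83 in the littermates and 11.75 and 12.10 in MCK-PPARb muscle, so only replicate 2 of the MCK-PPARb group stood above the non-transgenic pair.

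The level of the members differed between arrays of the same group. MCK-PPARb replicate 2 was the highest of the 4 arrays for 23 of 47 Mrpl and 13 of 27 Mrps genes, and non-transgenic replicate 2 for 15 and 9. Among all genes tested these arrays were the highest for 26.2% and 23.5%. MCK-PPARb replicate 1 was the lowest array for 18 Mrpl and 11 Mrps genes, and non-transgenic replicate 1 for 16 and 11, against 26.9% and 25.3% of all genes tested. Relative to each gene's mean over the arrays, Mrpl genes lay at -0.094 and 0.036 on the non-transgenic and -0.078 and 0.14 on the MCK-PPARb arrays, and Mrps genes at -0.070 and 0.068 against -0.095 and 0.097. Both subunits therefore had a low and a high array in each group. All genes tested lay at 0.0074 and -0.025 against 0.0015 and 0.016, near 0 on every array. The cytosolic ribosomal proteins lay at -0.18 and 0.062 against -0.020 and 0.14. They had the sign of the members on each array, but lay near 0 on MCK-PPARb replicate 1. Respiratory chain and ATP synthase subunits lay at 0.046 and 0.027 against -0.10 and 0.032, below 0 on MCK-PPARb replicate 1 only. The part of brightness, scaling or the tissue sampled in this pattern was not tested. Without MCK-PPARb replicate 1 the mean difference of the Mrpl genes was 0.17 and that of the Mrps genes 0.098, and without MCK-PPARb replicate 2 they were -0.048 and -0.095. Without non-transgenic replicate 1 they were -0.0067 and -0.067, and without replicate 2 they were 0.12 and 0.071, so the sign of both means rests on single arrays.

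**Figure D2:**
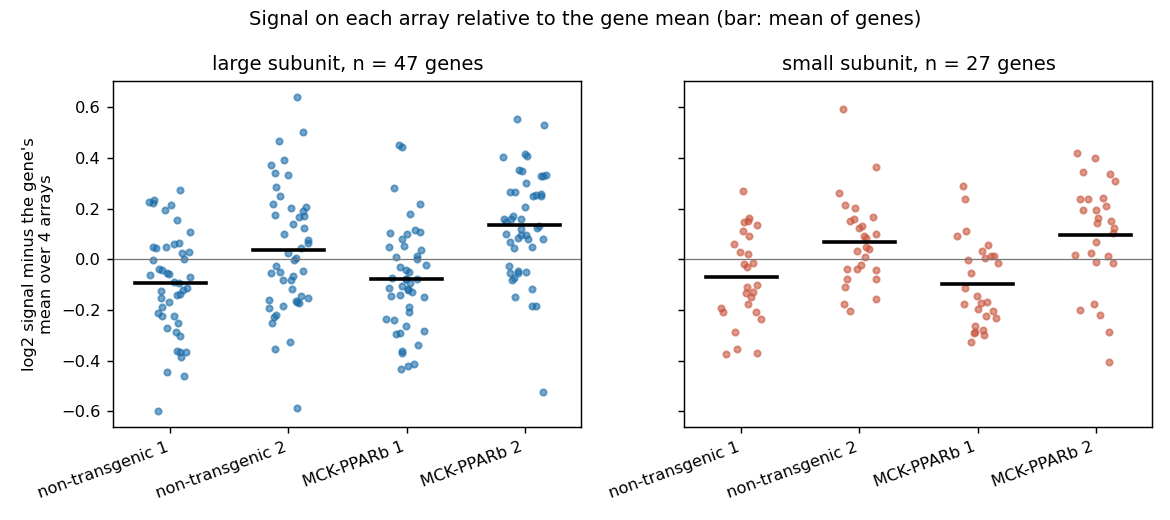
Log2 signal of each gene on each of the 4 arrays minus the gene's mean over the arrays (y axis), for 47 Mrpl genes (left) and 27 Mrps genes (right); points are genes and bars the mean of genes. In both subunits the mean of replicate 1 of each group lies below 0 and that of replicate 2 above, with Mrpl means of -0.094, 0.036, -0.078 and 0.14 from left to right.

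The gap between the arrays of a group was as large as most differences between groups. The median absolute difference of the 74 genes was 0.17 on the log2 scale, and the median of the larger replicate gap was 0.38. The difference exceeded both replicate gaps for 13 genes, 17.6% of the members, whereas it did so for 30.1% of all genes tested, which were dimmer. The part of brightness in these shares was not tested. The 13 were Mrpl2, Mrpl14, Mrpl16, Mrpl33, Mrpl39, Mrpl42, Mrpl48, Mrps5, Mrps9, Mrps12, Mrps22, Mrps25 and Mrps34. The widest gap, 1.09, lay between the non-transgenic arrays of Mrpl18, which read 2049 and 4348 units there and 2519 and 2684 units in MCK-PPARb muscle.

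**Figure D3:**
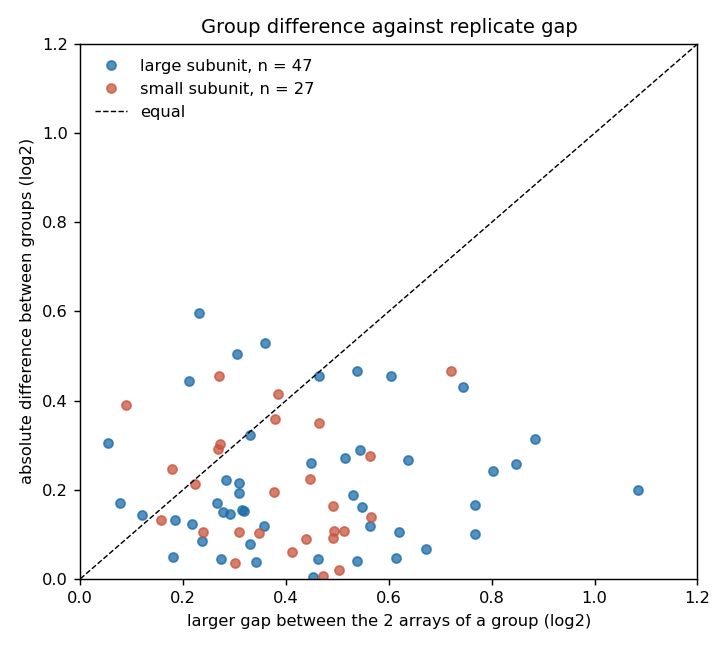
Absolute log2 difference between groups (y axis) against the larger of the gaps between the 2 arrays of a group (x axis) for the 47 Mrpl and 27 Mrps genes; each point is a gene and the dashed line marks equality. Most points lie below the line, and 13 genes lie above it.

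Of the 74 genes, 33 have more than 1 probe set with a single symbol. Beside the brightest ones, 31 further probe sets lay above the filter, and their difference had the sign of the brightest probe set in 27 cases and the opposite sign in 4. None was called, against 0.601% of all probe sets, and 4 had an unadjusted p under 0.05, against 10.6%. Of these, 2 belong to Mrpl28, at 2647 and 3451 against 4383 and 5267 units (0.67) and at 3186 and 3748 against 5019 and 4825 units (0.51), while its brightest probe set read 5141 and 3069 against 4873 and 5875 units (0.43) and overlapped. The others were that of Mrpl48 given above and 1 of Mrpl49, which read 1020 and 1318 against 360 and 711 units (-1.20, adjusted p = 0.331). The brightest probe set of Mrpl49 read 1120 and 1407 against 1049 and 1605 units (0.048), so its probe sets disagree. The other disagreeing ones belong to Mrpl52, with differences of 0.61 and 0.27 against -0.067, and to Mrps2, with -0.41 against 0.0072.

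Ribosomal proteins of mitochondria that carry other names were also read. Of 9 listed symbols, 4 were measured outside the Mrpl and Mrps genes. None passed, against 0.731% of all genes tested. The unadjusted limma p was under 0.05 for 1, which was higher, against 5.31% of all genes tested higher and 5.57% lower. Gadd45gip1, a large-subunit protein at the tunnel from which the new chain leaves, read 2070 and 2034 units in the littermates and 2868 and 3084 units in transgenic muscle (log2 difference 0.54 ± 0.21, adjusted p = 0.411). Dap3, a GTP-binding protein of the small subunit, read 3458 and 3646 against 4370 and 5182 units (0.42 ± 0.20, adjusted p = 0.516). Both genes were higher on both MCK-PPARb arrays without passing. Chchd1, of the small subunit, read 12370 and 8805 against 8574 and 9096 units (-0.24 ± 0.22) and overlapped.

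None of the tested genes that assemble, charge or run the mitochondrial translation machinery passed either, against 0.731% of all genes tested. Of them Slirp alone, which was lower, had an unadjusted limma p under 0.05. Of all genes tested, 5.57% were lower and 5.31% higher at that level. Tested were 15 of 24 listed assembly genes, 8 of 15 translation factors and 9 of 20 synthetases and related enzymes. The rest were not measured or lay below the filter, so nothing is said of them. Of 15 tested assembly genes, 5 had a difference above 0 and 10 below, with a median of -0.076. Mtg1, a GTPase of large-subunit assembly, read 1797 and 1848 against 1161 and 1592 units (-0.42 ± 0.26), Tfb1m, which methylates the small-subunit RNA, 596 and 450 against 669 and 867 units (0.56 ± 0.34), and Oxa1l, which inserts new chains into the inner membrane, 1666 and 1238 against 1150 and 1108 units (-0.35 ± 0.27). Of 8 tested translation factors and mRNA-binding proteins, the median was 0.17. Slirp, which stabilises mitochondrial mRNAs with its partner Lrpprc, read 3635 and 3919 against 2487 and 2436 units, a difference of -0.62 ± 0.20 with an adjusted p of 0.313. Both of its MCK-PPARb signals were lower by more than the gap within either group. Tufm, the mitochondrial elongation factor Tu, read 1434 and 731 against 1989 and 1351 units (0.68 ± 0.38), and Gfm1, an elongation factor G, 3016 and 3854 against 2590 and 2887 units (-0.32 ± 0.22).

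Of 9 tested mitochondrial aminoacyl-tRNA synthetases and related enzymes, which load tRNAs, 6 had a difference above 0, with a median of 0.16. Differences were 0.66 ± 0.33 for Iars2, 0.57 ± 0.37 for Tars2 and -0.37 ± 0.26 for Rars2. Of 11 tested genes that copy and transcribe mitochondrial DNA, 5 were above 0, with a median of -0.044. Polg, the polymerase that copies it, read 2228 and 1837 against 3023 and 2711 units (0.50 ± 0.22, adjusted p = 0.485). Rrm2b, a ribonucleotide reductase subunit that supplies nucleotides for it, read 896 and 939 against 628 and 604 units (-0.57 ± 0.29), and Tfb2m, a transcription initiation factor, had a difference of -0.40 ± 0.26. Tfam, which packs mitochondrial DNA and starts its transcription, read 2124 and 2484 against 2176 and 2280 units (-0.044 ± 0.22).

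Of 10 tested regulators of mitochondrial biogenesis, 8 had a difference above 0, none passed and none had an unadjusted limma p under 0.05. Of all genes tested, 51.2% were above 0 and 0.731% passed, and 5.31% higher and 5.57% lower had such a p. The median of the 10 regulators was 0.28, against 0.011 for all genes tested. Over the 12 regulators measured, with Creb1 and Myc below the filter, the median was 0.19, against 0.046 for all genes measured. Ppargc1a, which encodes the coactivator PGC-1alpha, read 2495 and 2450 against 2541 and 2224 units (-0.057 ± 0.21), with an interval of -0.55 to 0.44. Ppargc1b, its relative, read 3460 and 2969 against 4032 and 4150 units (0.35 ± 0.20, adjusted p = 0.593). Its groups did not overlap, whereas those of Ppargc1a did. Nrf1, the gene of the factor NRF-1, read 609 and 654 against 842 and 766 units (0.35 ± 0.30), Gabpa, a subunit of GABP, 657 and 1150 against 1069 and 863 units (0.14 ± 0.35), and Esrra, a nuclear receptor that works with PGC-1alpha, 2408 and 2404 against 2433 and 2210 units (-0.053 ± 0.21). Sirt1, a deacetylase that acts on PGC-1alpha, read 356 and 366 against 475 and 704 units, around the filter level (0.68 ± 0.38). Only its MCK-PPARb signals lay above that level, and they carried the gene past the filter.

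Beside the partners of the mitochondrial ribosome, the cytosolic ribosomal proteins had a median log2 difference of 0.13 over 43 tested genes, 28 of them above 0. The respiratory chain and ATP synthase subunits had a median of -0.055 over 78 tested genes, 26 above 0 and 52 below. None of either list was called, against 0.731% of all genes tested. The unadjusted limma p was under 0.05 for 1 cytosolic gene higher and 1 lower, and for 1 respiratory chain gene higher and 4 lower. Over all genes tested these shares were 5.31% higher and 5.57% lower. The medians of the Mrpl and Mrps genes, 0.048 and 0.0072, lay between these values, and no test of the differences between lists was made.

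**Figure D4:**
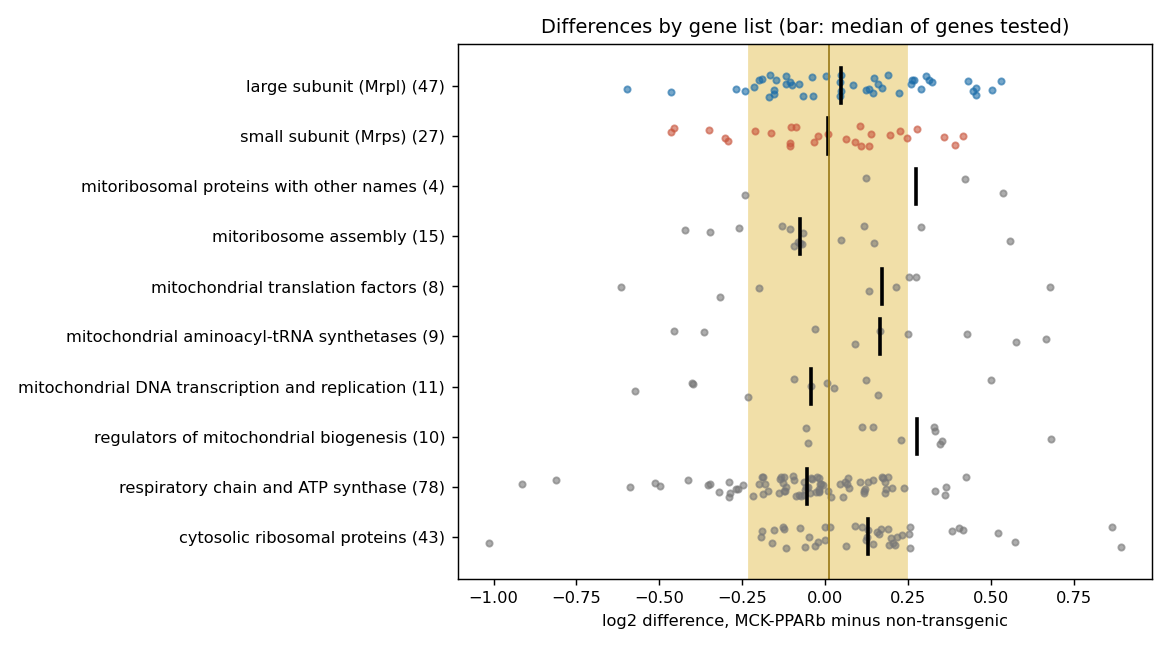
Log2 difference (x axis, MCK-PPARb minus non-transgenic) of each tested gene in 10 lists, with the number of genes in brackets; black bars are medians, the shaded band spans the quartiles of all 6841 genes tested, from -0.23 to 0.25, and the thin line their median of 0.011. The medians of the large and small subunit, 0.048 and 0.0072, lie within the band near its centre line.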

How the data were processed

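The deposited values are linear signal intensities, 1 for each probe set of an array. The submitters' processing notes list MAS5 and GCOS, whose version is not given in the sources used here. A trimmed mean was 1501 units on each array, leaving out 2% at each end, so the arrays had been scaled alike. On non-transgenic replicate 1 the 10 brightest probe sets held 4.20% of the signal, and on the other arrays 2.36% to 2.78%. Precision is limited by the number of arrays.

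Of 22690 probe sets, 64 controls were left out, and 20380 of the rest carried 1 gene symbol, 691 several and 1555 none; 3 with several symbols name an Mrpl or Mrps gene and were not used. All 74 symbols were current in the gene table of assembly GRCm38.p6. Probe sets with a mean log2 signal above the median of all (444 units) were tested, 11313 in number, with limma 3.58.1 in R 4.3.3 (lmFit, eBayes with an intensity trend, both directions) on log2 signals without pseudocount, with Benjamini-Hochberg adjustment over all of them. A difference is MCK-PPARb minus non-transgenic, and errors are standard errors of the fit with 5.38 prior and 2 residual degrees of freedom. An exact permutation test of a single value with 2 arrays against 2 cannot go below p = 0.333. The fit was tested on simulated data, with independent errors and a spread taken from the fit itself. Those data held no shifts shared by genes of an array, so they say nothing of such shifts here.

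The members, the gene lists and the tests were chosen with earlier results of these data known. Named with their values were, in each subunit, the 6 genes of smallest p whose groups do not overlap, the 2 nearest to no difference and the 2 brightest, then Mrps18a, Mrps18b, Mrps18c, Mrps30 and Mrps36, up to 3 genes of smallest p in a list, and Ppard, Ppargc1a, Ppargc1b, Nrf1, Gabpa, Esrra and Tfam. Genes whose probe sets disagree or have a low p, Mrpl18, Mrpl32 and those whose difference exceeds both replicate gaps were chosen once their values had been seen, as were the classes by origin and the promoter motifs.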

Additional observations from a re-analysis of the deposited data

How the results depend on the processing

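No member was called in any of the 15 alternatives run: a pseudocount of 33.9, median centring, quantile normalization, a replicate block, a filter at the 75th percentile, no filter, averaged probe sets, _s_at and _x_at probe sets left out, each of 4 arrays left out, no intensity trend, robust eBayes, and an adjusted p under 0.1. The smallest adjusted p of a member ran from 0.141 to 0.635 over them. Members with an unadjusted p under 0.05 numbered 1 to 6, with 1 under median centring and 5 with averaged probe sets. Calls among all probe sets numbered 68, and 21 without the trend, 377 with the replicate block, 116 with median centring, 150 at an adjusted p under 0.1, 153 and 194 without non-transgenic replicate 1 or 2, and 45 and 51 without MCK-PPARb replicate 1 or 2. The block changed no call of a member, and same-numbered arrays, which share only a number in the labels, deviated together at r = 0.276 over probe sets. Median centring moved the median of all tested probe sets from 0.017 to -0.089, and the means of the subunits to -0.047 and -0.10. The mean differences ran from -0.048 to 0.17 for the large subunit and from -0.10 to 0.098 for the small, less than the SD between arrays from the values reported. Large minus small, 0.057, ran from 0.046 to 0.067 with an array left out and was 0.044 with the filter at the 75th percentile, where 65 members remained, 0.038 without _s_at and _x_at probe sets, and 0.15 with the mean of probe sets. Averaging brings in probe sets below the filter: that of Mrpl42 read 76.0 and 6.20 against 127 and 83.9 units.

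Signs turned for some named genes, none of which was called. Under quantile normalization Mrpl1 was at -0.041 and Mrps2 at -0.013, and under median centring Mrpl1 was at -0.10, Mrps2 at -0.099 and Mrps18b at -0.045. With the mean of probe sets Mrpl21 was at 0.65, Mrpl42 at 1.04, Mrps2 at -0.20 and Mrps9 at -0.37, and without _s_at and _x_at probe sets Gfm1 was at 0.081. With an array left out the ranges were -0.22 to 0.23 for Mrpl1, -0.21 to 0.13 for Mrpl21, -0.14 to 0.27 for Mrps18b, -0.14 to 0.42 for Mrps18c, -0.23 to 0.24 for Mrps2, -0.31 to 0.13 for Mrps21, -0.41 to 0.082 for Mrps30, -0.22 to 0.015 for Mrps36, -0.27 to 0.23 for Mrps6, -0.49 to 0.0043 for Chchd1, -0.12 to 0.016 for Esrra, -0.26 to 0.55 for Gabpa, -0.15 to 0.039 for Ppargc1a and -0.16 to 0.069 for Tfam. Leaving out an array thus turned the sign of 14 of 47 named genes and moved the difference of another 18 by over 1.5 times, such as Tufm (0.19 to 1.17), Tars2 (0.14 to 1.01), Mrps33 (-0.83 to -0.11), Mrpl58 (0.15 to 0.76), Mrpl54 (0.22 to 0.69) and Tfb2m (-0.70 to -0.10). The other 15, among them Mrpl16, Mrpl48, Mrpl14, Mrpl42, Mrps34 and Mrps12, moved by less. Beyond what these settings do by construction, the cause was not tested.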
